A study of Mus musculus with 12 samples.

Results

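The Josephin deubiquitinases Josd1 and Josd2 and 6 partners of ataxin-3, namely Vcp, Ufd1, Nploc4, Rad23b, Stub1 and Ube4b, were described in dorsal root ganglia, where the cell bodies of sensory neurons sit together next to the spinal cord. These 8 genes were chosen by name for their relation to ataxin-3, out of 35534 genes to which transcripts could be assigned. All 8 passed the filter on low counts. The libraries were labelled Q84 (1 male and 5 females) and WT (3 males and 3 females), and every mouse was 24 weeks old. Q84 stands for YAC Q84, a mouse model of spinocerebellar ataxia type 3 that carries the human ATXN3 gene with an expanded CAG repeat on a yeast artificial chromosome and keeps its own Atxn3. Nothing in the labels ties a library to an animal of its own, and the p-values therefore reflect differences among libraries, which may be technical.

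Ataxin-3 removes and trims ubiquitin chains with its Josephin domain, a cysteine protease fold that it shares with the proteins of Josd1 and Josd2. It binds VCP (also called p97), an ATPase that pulls ubiquitin-tagged proteins out of membranes and complexes, and VCP finds much of its cargo through the paired cofactors UFD1 and NPLOC4. RAD23B carries tagged proteins to the proteasome, STUB1 (also called CHIP) is a chaperone-bound ubiquitin ligase whose chains ataxin-3 trims, and UBE4B lengthens ubiquitin chains and works with VCP.

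Total estimated counts ran from 66490481 to 86891563 per library. Sensory neuron markers were present in every library, with a summed level of 6092 to 6617 CPM (counts scaled to library size) in 5 Q84 libraries and 6255 to 7885 CPM in 5 WT libraries. One Atxn3 transcript of 1000 bases, ENSMUST00000161011.8, held 62.7 to 79.4 TPM (a level scaled for transcript length) in those 5 Q84 libraries and 0 to 0.285 TPM in those 5 WT libraries. Whether the reads placed on this transcript came from the human transgene was not tested. Against their labels, Q84 female 5 had 0.061 TPM of this transcript and WT female 2 had 33.97 TPM. Both are given apart, and each test was run on all 12 libraries as labelled and on the other 10. Atxn3 summed over its transcripts was 86.3 to 107 CPM in Q84 and 54.6 to 62.0 CPM in WT (n = 5 each), but its transcript set the libraries apart, so that difference is no test.

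The 8 genes covered a wide range of levels. Averaged over the 12 libraries, Vcp stood at 489 ± 65.4 TPM, which placed it at rank 291 of 18868 tested genes. Stub1 followed at 92.7 ± 11.6 TPM and Ufd1 at 91.7 ± 12 TPM, and Stub1 was the higher of this pair in 6 of 12 libraries, so their order was not resolved. Rad23b stood at 60.9 ± 9.58 TPM and Josd2 at 26.0 ± 4.58 TPM (SD, n = 12 for each gene). Each of the steps from Ufd1 to Rad23b, Rad23b to Josd2 and Josd2 to Ube4b held in 12 of 12 libraries.

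The 3 genes with the lowest levels lay close together. Ube4b averaged 16.7 ± 4.24 TPM, Nploc4 14.7 ± 3.57 TPM and Josd1 12.9 ± 1.93 TPM (SD, n = 12 for each gene). Ube4b exceeded Nploc4 in 10 of 12 libraries and Nploc4 exceeded Josd1 in 11 of 12, although both differences of means were smaller than the SD of Nploc4. Even Josd1, at rank 6431, was above the median tested gene, which had 4.45 TPM.

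**Figure D1:**
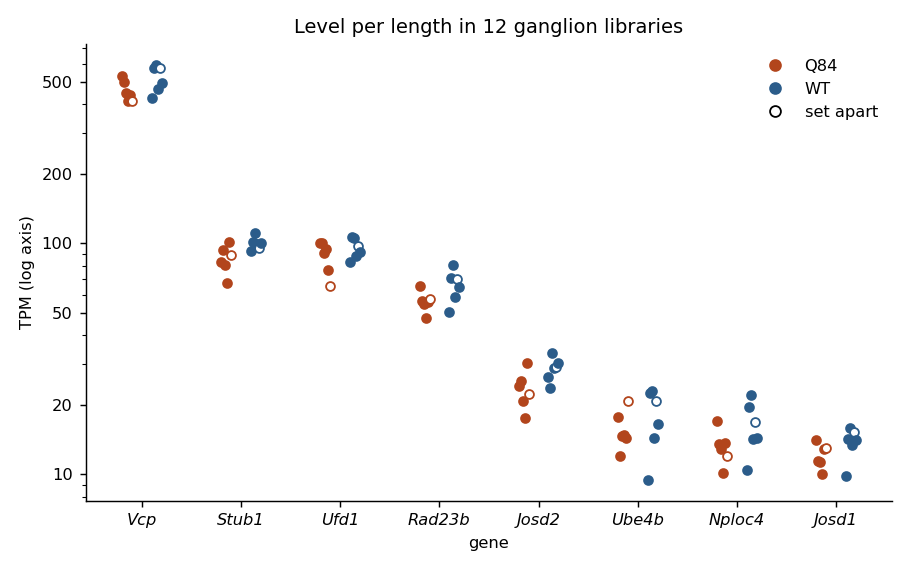
Level per length (TPM, log axis) of the 8 genes in 12 libraries, Q84 in orange left of WT in blue, one point per library, open points for the libraries labelled Q84 female 5 and WT female 2. Vcp lies at 413 to 593 TPM, apart from the other 7 genes, and the Q84 and WT points of each gene overlap.

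None of the 8 genes passed the test of Q84 against WT, which does not show that their levels were equal; the interval of each difference is given with its values. With edgeR's quasi-likelihood test and Benjamini-Hochberg adjustment at 0.05, 0 of 8 passed in the 10 libraries, where 6.45% of 18714 tested genes did (1.52% higher and 4.93% lower in Q84). In the 12 libraries as labelled 0 of 8 passed as well, where 0.0053% of 18868 tested genes did. DESeq2 and limma-voom also called 0 of 8 in both sets. Over all genes in the 12 libraries DESeq2 called 620 and limma-voom 1, and the DESeq2 count in the 10 libraries is given with the alternatives below. At an unadjusted p under 0.05 the counts were 1 of 8 in the 10 libraries (Stub1), where 20.2% of all genes reached it, and 0 of 8 in the 12, where 14.3% did. The fitted log2 fold change (Q84 over WT) was above 0 for Ufd1 and below 0 for the other 7 genes in either set. The median over the 8 genes was -0.10 in the 10 libraries, beside 0.01 over all tested genes.

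The values of Q84 and WT libraries overlapped for all 8 genes in either set, whereas 8.68% of tested genes had groups that did not overlap in the 10 libraries and 1.56% in the 12. In whole tissue, fewer cells of a type and less RNA per cell cannot be told apart. The summed sensory neuron markers had a median of 6371 CPM in Q84 and 6838 CPM in WT, with 0 of the 8 markers under a mean of 1 CPM in either group. The log2 fold changes of those 8 markers had a median of -0.14 (edgeR, 10 libraries). The 5 red blood cell markers summed to 462 to 1826 CPM in Q84 and 173 to 1033 CPM in WT, with medians of 1256 CPM in Q84 and 535 CPM in WT (n = 5 each). Those 5 genes had an unadjusted p under 0.05 each, with a median log2 fold change of 1.34, but 0 passed the adjustment (edgeR, 10 libraries).

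Markers of other cells were summed in the same way. Fibroblast markers summed to 943 to 1127 CPM in Q84 and 759 to 1126 CPM in WT, and the log2 fold changes of the 4 genes had a median of 0.38. Skeletal muscle markers summed to 1.61 to 530 CPM in Q84 and 1.91 to 153 CPM in WT (median 2.42 over 4 genes), and adipocyte markers to 4.59 to 69.2 CPM in Q84 and 3.10 to 10.1 CPM in WT (median 1.69 over 4 genes). Both sums were highest in Q84 male 1, followed by Q84 female 1 (320 CPM for muscle and 27.6 CPM for adipocytes). The library medians were 15.5 CPM in Q84 and 9.68 CPM in WT for muscle, and 9.54 CPM in Q84 and 6.89 CPM in WT for adipocytes. An unadjusted p under 0.05 was reached by 0 of 4 muscle genes and 2 of 4 adipocyte genes (edgeR, 10 libraries). Satellite glia markers summed to 1684 to 2053 CPM in Q84 and 1871 to 2250 CPM in WT (median -0.16 over 4 genes). Schwann cell markers summed to 2185 to 3810 CPM in Q84 and 2458 to 4044 CPM in WT (median 0.20 over 5 genes). Macrophage markers summed to 28.2 to 41.0 CPM in Q84 and 20.04 to 41.8 CPM in WT (median 0.21 over 4 genes, n = 5 libraries per group for all sums). Of all these markers 2 passed the test in the 10 libraries and are named for that: Pdgfra of fibroblasts rose by 0.62 and Pou4f1 of sensory neurons fell by 0.78 on the log2 scale (adjusted p = 0.00303 and 0.0123, edgeR), while 0 passed in the 12. The part of these cells in the values of the 8 genes was not tested.

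**Figure D2:**
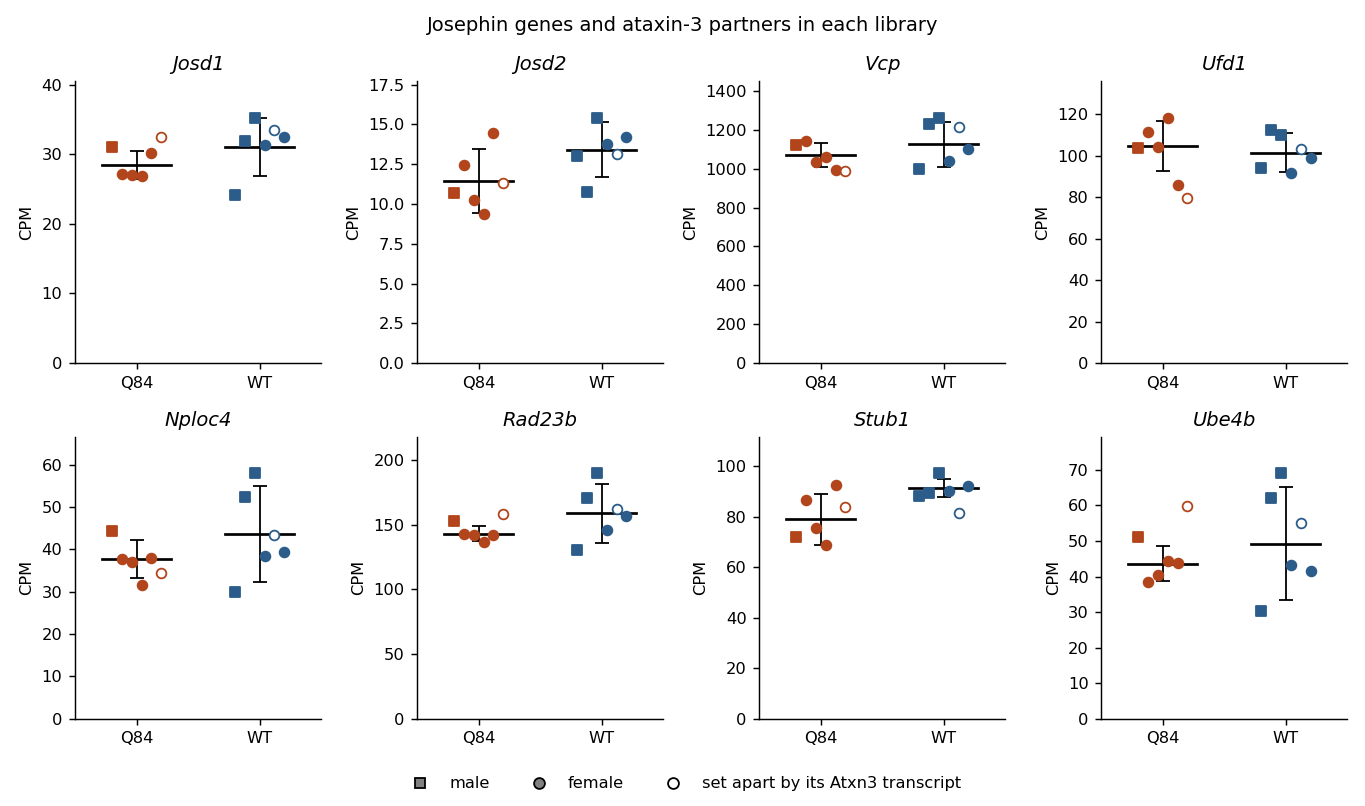
CPM of each gene in every library, Q84 left of WT, squares for males and circles for females; lines and bars are the mean and SD of the 5 filled libraries per group, and open circles are the libraries labelled Q84 female 5 and WT female 2. The groups overlap in all 8 panels, and the WT males span the whole range of Ube4b, from 30.3 to 69.0 CPM.

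Josd1 encodes a small deubiquitinase made of little more than a Josephin domain and known in cultured human cells for an association with the plasma membrane. It held 31.0 CPM in Q84 male 1 and 27.1, 27.1, 26.9 and 30.2 CPM in Q84 females 1 to 4. In WT it held 24.2, 31.9 and 35.2 CPM in males 1 to 3 and 31.3 and 32.5 CPM in females 1 and 3. Of the libraries given apart, Q84 female 5 had 32.5 CPM and WT female 2 had 33.5 CPM. All 5 Q84 values lay inside the WT range, whose ends were both males. The log2 fold change was -0.12 ± 0.11 (SE; adjusted p = 0.630, edgeR, 10 libraries), a fold of 0.923 with a 95% interval of 0.780 to 1.09.

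Josd2, the cytosolic relative, had the lowest counts of the 8 genes, 644 to 1263 per library. Its level was 10.7 CPM in Q84 male 1 and 12.4, 10.2, 9.39 and 14.4 CPM in Q84 females 1 to 4. WT males 1 to 3 had 13.0, 10.7 and 15.4 CPM and WT females 1 and 3 had 13.8 and 14.2 CPM. The libraries labelled Q84 female 5 and WT female 2 had 11.3 and 13.1 CPM. WT male 2 lay among the lower Q84 libraries and Q84 female 4 among the higher WT libraries. The fitted log2 fold change was the most negative of the 8, -0.27 ± 0.15 (SE; adjusted p = 0.338, edgeR, 10 libraries), a fold of 0.827 with a 95% interval of 0.661 to 1.03.

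The ratio of Josd1 to Josd2 in TPM was 0.516 ± 0.0738 in Q84 and 0.477 ± 0.0829 in WT (SD, n = 5 each). Ranges of this ratio overlapped, at 0.425 to 0.585 in Q84 and 0.373 to 0.605 in WT. In every library Josd2 thus had the higher level per length of the pair.

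Vcp was the best counted gene of the set, with 69540 to 103968 estimated counts per library. It stood at 1121 CPM in Q84 male 1 and at 1144, 1034, 1060 and 996 CPM in Q84 females 1 to 4. In WT it stood at 997, 1228 and 1262 CPM in males 1 to 3 and at 1038 and 1101 CPM in females 1 and 3. The library labelled Q84 female 5 was the lowest of all at 991 CPM, and that labelled WT female 2 had 1217 CPM. Of the 5 Q84 libraries 4 lay inside the WT range, and Q84 female 4 lay just below WT male 1. On the log2 scale Q84 over WT was -0.03 ± 0.09 (SE; adjusted p = 0.905, edgeR, 10 libraries), and the 95% interval of the fold, 0.861 to 1.12, was on a log scale the narrowest of the 8 genes.

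Ufd1 and Nploc4 encode the heterodimer that recruits ubiquitin-tagged cargo to VCP. Ufd1 had 104 CPM in Q84 male 1 and 111, 104, 118 and 85.9 CPM in Q84 females 1 to 4. Its values were 94.1, 112 and 110 CPM in WT males 1 to 3 and 91.8 and 98.9 CPM in WT females 1 and 3. The library labelled Q84 female 5 had the lowest value, 79.5 CPM, against 103 CPM in that labelled WT female 2. Q84 libraries thus held both the highest and the lowest values of Ufd1. Its log2 fold change was 0.08 ± 0.10 (SE; adjusted p = 0.734, edgeR, 10 libraries), with a 95% interval of the fold of 0.906 to 1.23.

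Nploc4 was at 44.3 CPM in Q84 male 1 and at 37.8, 37.0, 31.5 and 37.9 CPM in Q84 females 1 to 4. In WT it was at 29.9, 52.4 and 58.0 CPM in males 1 to 3 and at 38.4 and 39.3 CPM in females 1 and 3. Apart from these, Q84 female 5 was at 34.4 CPM and WT female 2 at 43.5 CPM. The WT males alone ran past the Q84 range on both sides. The log2 fold change was -0.10 ± 0.16 (SE; adjusted p = 0.808, edgeR, 10 libraries), with a 95% interval of the fold of 0.728 to 1.20.

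The partners of the VCP complex were far from equal in message. Ufd1 exceeded Nploc4 by 7.07 ± 1.48 times in Q84 and 6.14 ± 1.18 times in WT, and Vcp exceeded Nploc4 by 35.3 ± 3.87 times in Q84 and 32.8 ± 5.29 times in WT (TPM ratios, SD, n = 5 each). Vcp exceeded Ufd1 by 5.07 ± 0.507 times in Q84 and 5.36 ± 0.185 times in WT. The ranges of all 3 ratios overlapped between the groups.

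Rad23b, whose protein joins proteasome and ubiquitin chains and in human cells binds ataxin-3 through its ubiquitin-like end, stood at 153 CPM in Q84 male 1 and at 143, 142, 137 and 142 CPM in Q84 females 1 to 4. Among WT males 1 to 3 it stood at 131, 171 and 190 CPM, and in WT females 1 and 3 at 146 and 157 CPM. The libraries labelled Q84 female 5 and WT female 2 had 158 and 162 CPM. Q84 values were close together, with an SD of 5.86 CPM beside 22.8 CPM in WT, and lay inside the WT range. The log2 fold change was -0.10 ± 0.10 (SE; adjusted p = 0.625, edgeR, 10 libraries), with a 95% interval of the fold of 0.804 to 1.08.

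Stub1 came nearest to a difference. Its level was 72.0 CPM in Q84 male 1 and 86.4, 75.4, 68.6 and 92.4 CPM in Q84 females 1 to 4. The WT values were 88.1, 89.4 and 97.1 CPM in males 1 to 3 and 90.3 and 92.3 CPM in females 1 and 3. The libraries labelled Q84 female 5 and WT female 2 had 83.7 and 81.6 CPM. In 4 of 5 Q84 libraries Stub1 lay below all 5 WT libraries, and Q84 female 4 lay at the WT level. The fit gave -0.24 ± 0.09 on the log2 scale, Q84 over WT (SE; adjusted p = 0.178, edgeR, 10 libraries), a fold of 0.848 with a 95% interval of 0.735 to 0.978 that is not adjusted for the number of genes. In the 12 libraries it was -0.18 ± 0.09 (SE; adjusted p = 0.365, edgeR). Exons of Stub1 share 1084 bases with Jmjd8 on the opposite strand in GENCODE M21, Jmjd8 had 610 to 1126 estimated counts per library, and whether strand was used in counting is not stated by the labels or file headers, so reads from the shared bases cannot be told apart by strand.

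Ube4b, the chain-lengthening ligase first known in yeast as Ufd2, varied most. It held 51.2 CPM in Q84 male 1 and 38.3, 40.5, 44.3 and 43.7 CPM in Q84 females 1 to 4. WT males 1 to 3 had 30.3, 62.0 and 69.0 CPM, and WT females 1 and 3 had 43.3 and 41.5 CPM. By label, Q84 female 5 had 59.8 CPM and WT female 2 had 55.0 CPM. Both the lowest and the highest library were WT males, 2.28-fold apart. The log2 fold change was -0.04 ± 0.20 (SE; adjusted p = 0.946, edgeR, 10 libraries), and the 95% interval of the fold, 0.718 to 1.32, was the widest of the 8 genes.

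Other genes also share exon bases with the set on the opposite strand in GENCODE M21. Cdc45 shares 209 bases with Ufd1 and had 263 to 472 estimated counts per library, and 1700022I11Rik shares 352 bases with Vcp and had 4.1 to 13.3. Ube4b shares 452 bases with Ube4bos1 and 296 with Ube4bos3.

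**Figure D3:**
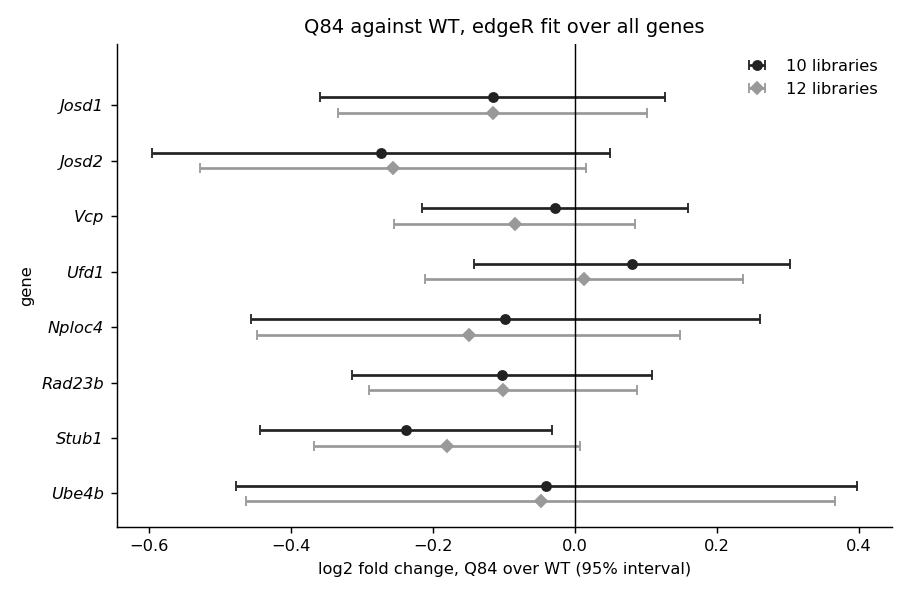
Log2 fold change of each gene, Q84 over WT, with 95% intervals from the edgeR fit, circles for the 10 libraries and diamonds for all 12 as labelled. The interval of Stub1 in the 10 libraries runs from -0.44 to -0.03, and the other 15 intervals include 0.

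Between the sexes, 0 of 8 genes passed (edgeR, 12 libraries, 0.0636% of 18868 genes passed), and 0 of 8 had an unadjusted p under 0.05 where 3.82% of all genes did. DESeq2 and limma-voom called 0 of 8 as well, and 20 and 10 genes over all. The difference with the smallest p was that of Nploc4, at 46.1 ± 12.2 CPM in males (SD, n = 4) and 37.5 ± 3.52 CPM in females (SD, n = 8), which is 0.25 ± 0.15 on the log2 scale (SE; adjusted p = 1.00, edgeR). Q84 has a single male library, so the effect of genotype in males could not be checked between replicates. In the 6 female libraries that matched their Atxn3 label (4 Q84 and 2 WT) the log2 fold change, Q84 over WT, was -0.16 for Stub1 and -0.25 for Josd2 (adjusted p = 0.512 and 0.488, edgeR).

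The extremes of the 8 genes fell in few libraries. WT male 3 held the highest value of 7 of 8 genes, all but Ufd1, and WT male 1 held the lowest value of Josd1, Nploc4, Rad23b and Ube4b. WT male 3 exceeded WT male 1 by 1.46-fold in Josd1, 1.94-fold in Nploc4, 1.45-fold in Rad23b and 2.28-fold in Ube4b, but by 1.18-fold in Josd2 and 1.10-fold in Stub1. These 2 libraries also differed in the mean fragment length behind the effective lengths (217 bases in WT male 3 and 240 bases in WT male 1). That length differed between the genotypes too. It was 234 to 243 bases in the 5 Q84 libraries and 213 to 240 bases in the 5 WT libraries, where only WT male 1 was above 232 bases. The libraries labelled Q84 female 5 and WT female 2 had 232 and 243 bases. Summed sensory neuron markers were 7830 CPM in WT male 3 and 6255 CPM in WT male 1, and summed Schwann cell markers 2468 CPM in WT male 3 and 4044 CPM in WT male 1. The part of these measures in the values was not tested.

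Without WT male 1, the log2 fold changes in the remaining 9 libraries were -0.17 for Josd1, -0.18 for Nploc4, -0.15 for Rad23b and -0.13 for Ube4b (adjusted p = 0.172, 0.212, 0.150 and 0.378, edgeR), and 0 of 8 genes passed while 1978 genes did in all. Without WT male 3 that of Ube4b was 0.03 and that of Nploc4 -0.04. The size of these 4 differences thus depended on which WT males were present. WT male 1 held the lowest and WT male 3 the highest values of these 4 genes, so the direction of the shifts followed from that choice.

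**Figure D4:**
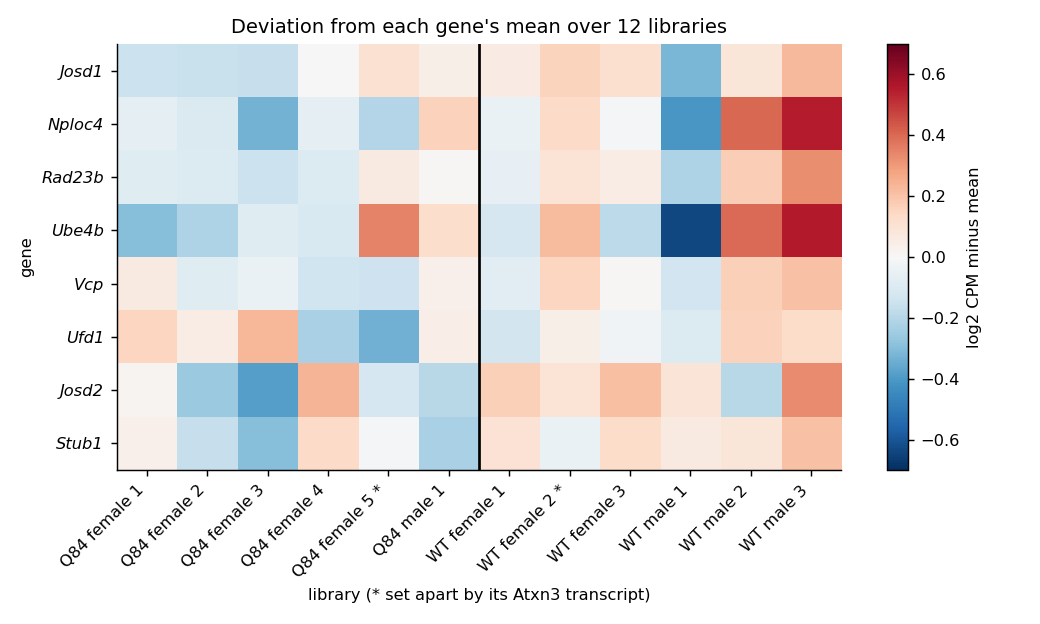
Log2 CPM of each gene minus its mean over 12 libraries, Q84 libraries left of the line and WT right of it, red above and blue below the mean, asterisks for the libraries labelled Q84 female 5 and WT female 2. WT male 3 is above the mean in all 8 rows, WT male 1 is below it in 6, and the colours of Josd1, Nploc4, Rad23b and Ube4b go together, as do those of Josd2 and Stub1.

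Pairs of the 8 genes followed each other across the 12 libraries to very different degrees. The closest pair was Nploc4 and Rad23b, with a Pearson r of 0.89 and a Spearman rho of 0.82, followed by Rad23b and Ube4b (r = 0.89, rho = 0.80) and Josd1 and Rad23b (r = 0.87, rho = 0.94). Josd2 and Stub1 formed a second pair (r = 0.85, rho = 0.88), while Josd2 and Ube4b had an r of 0.01. Vcp went with Nploc4 (r = 0.85, rho = 0.77), and Ufd1 had an r of 0.68 with Vcp (rho = 0.69) and of 0.36 with its dimer partner Nploc4 (rho = 0.22).

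These correlations are descriptions over n = 12 libraries, whose values share 1 scaling and one mixture of cells, depth and fragment length per library. For each pair, r was also taken without the 2 libraries farthest from the median of the gene named first, so the libraries left out can differ between pairs. This r was 0.72 for Nploc4 and Rad23b, 0.80 for Rad23b and Ube4b, 0.81 for Josd1 and Rad23b and 0.72 for Josd2 and Stub1. It was 0.77 for Josd1 and Ube4b, but 0.56 for Josd1 and Nploc4 and 0.51 for Nploc4 and Ube4b. For Vcp it was 0.67 with Nploc4, 0.51 with Rad23b and 0.27 with Ube4b, so the edge of the first group was not sharp. The first group has main transcripts of 3440 (Josd1), 4121 (Nploc4), 3810 (Rad23b) and 5626 bases (Ube4b). The second has shorter ones, of 864 (Josd2) and 1320 bases (Stub1). Vcp, which also went with Nploc4, has one of 3316 bases, and Ufd1 has one of 1996 bases. Whether transcript length has a part in the grouping was not tested.

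The promoters of the genes that went together are shown to let the pairs be compared. All 8 genes matched an entry of the RefSeq promoter table (GRCm38.p6, 250 bases before to 50 after the start). Capitals mark matches on either strand to CCAAT (the CCAAT box), GGGCGG (the GC box), GAANNTTC (an inverted pair of heat shock motifs), GCGCATGC (the NRF1 core), TGACNNNGC (an antioxidant response element core) or TGACGTCA (the cAMP response element); a match on the other strand appears as the reverse complement, such as ATTGG or CCGCCC. Josd1 lies on the minus strand at chr15:79687823-79688122, Rad23b on the plus strand at chr4:55349792-55350091, Nploc4 on the minus strand at chr11:120437651-120437950, Ube4b on the minus strand at chr4:149426582-149426881, Josd2 on the plus strand at chr7:44467730-44468029 and Stub1 on the minus strand at chr17:25832870-25833169.
Josd1: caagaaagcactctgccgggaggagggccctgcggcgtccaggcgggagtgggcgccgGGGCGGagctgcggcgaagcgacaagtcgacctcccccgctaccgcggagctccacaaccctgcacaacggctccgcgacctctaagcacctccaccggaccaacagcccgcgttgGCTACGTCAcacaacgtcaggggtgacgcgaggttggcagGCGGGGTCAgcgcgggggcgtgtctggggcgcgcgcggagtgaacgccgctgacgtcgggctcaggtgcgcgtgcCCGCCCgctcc
Rad23b: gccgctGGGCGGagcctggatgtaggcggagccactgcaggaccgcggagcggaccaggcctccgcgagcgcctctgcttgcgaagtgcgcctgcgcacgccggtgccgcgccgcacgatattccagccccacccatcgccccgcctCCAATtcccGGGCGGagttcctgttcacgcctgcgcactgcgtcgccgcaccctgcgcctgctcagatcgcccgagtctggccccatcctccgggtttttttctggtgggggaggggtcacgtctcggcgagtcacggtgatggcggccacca
Nploc4: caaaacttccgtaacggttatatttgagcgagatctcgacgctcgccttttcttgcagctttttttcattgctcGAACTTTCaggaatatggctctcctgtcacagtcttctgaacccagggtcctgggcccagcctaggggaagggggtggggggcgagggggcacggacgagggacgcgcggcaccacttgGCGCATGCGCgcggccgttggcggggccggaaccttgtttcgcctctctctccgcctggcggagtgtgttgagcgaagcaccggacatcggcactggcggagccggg
Ube4b: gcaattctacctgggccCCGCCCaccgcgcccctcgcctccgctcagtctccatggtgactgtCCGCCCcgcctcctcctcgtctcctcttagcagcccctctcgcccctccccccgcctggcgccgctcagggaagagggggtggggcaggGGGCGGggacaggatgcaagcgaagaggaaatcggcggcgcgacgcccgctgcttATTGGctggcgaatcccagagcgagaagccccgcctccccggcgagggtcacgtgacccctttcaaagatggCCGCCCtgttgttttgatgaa
Josd2: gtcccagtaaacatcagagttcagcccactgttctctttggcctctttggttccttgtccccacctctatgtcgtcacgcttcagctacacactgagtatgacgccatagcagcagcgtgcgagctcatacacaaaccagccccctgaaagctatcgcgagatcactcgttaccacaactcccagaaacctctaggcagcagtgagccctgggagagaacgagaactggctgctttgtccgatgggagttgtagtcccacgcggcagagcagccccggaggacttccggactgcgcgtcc
Stub1: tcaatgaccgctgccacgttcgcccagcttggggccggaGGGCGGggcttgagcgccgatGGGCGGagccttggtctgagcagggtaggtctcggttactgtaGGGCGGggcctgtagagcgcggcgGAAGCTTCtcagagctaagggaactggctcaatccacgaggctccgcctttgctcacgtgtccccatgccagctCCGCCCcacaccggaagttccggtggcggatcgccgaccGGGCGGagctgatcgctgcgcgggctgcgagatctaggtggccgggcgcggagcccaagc

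The promoters of Rad23b and Ube4b each held the GC box and 1 CCAAT box, with 2 GC boxes in Rad23b and 4 in Ube4b, whereas that of Nploc4 held neither. The promoter of Josd1 held 2 GC boxes, 2 antioxidant response element cores and no CCAAT box. Nploc4 instead held 2 overlapping matches to the NRF1 core, one on each strand, and 1 heat shock pair. Of 32851 promoters in the table, 2.71% have at least 1 match to the NRF1 core and 7.86% at least 1 heat shock pair. Stub1 held 5 GC boxes and 1 heat shock pair, and Josd2, the gene it went with, held none of the 6 motifs. GC boxes were found in 4 of 8 promoters (Josd1, Rad23b, Stub1 and Ube4b) beside 35.7% of the table, and CCAAT in 3 of 8 (Vcp, with 5 matches, Rad23b and Ube4b) beside 37.4%. The heat shock pair was in 3 of 8 (Vcp, Nploc4 and Stub1), the antioxidant core in 2 of 8 (Vcp, where it abuts a CCAAT match, and Josd1) beside 12.4%, and the cAMP response element in 0 of 8 beside 1.79%. The number of CG dinucleotides ran from 15 (Ufd1) to 40 (Josd1), above the table's median of 7 in every case. A match is a description of these letters and not a shown binding site.

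Among 8707 genes with a mean of 10 CPM or more, the 2 most like each of the 8 genes across the 12 libraries were named by Pearson's r of log2 CPM. They were Icmt and Camk2a for Josd1 (r = 0.96 and 0.96), Mpst and 0610012G03Rik for Josd2 (0.92 and 0.91), Rab7 and Slc2a3 for Vcp (0.96 and 0.96) and Ndc1 and Ube2j1 for Ufd1 (0.95 and 0.95). For Nploc4 they were Tubgcp2 and Clcn6 (0.98 and 0.98), for Rad23b BC048403 and Tmem131l (0.98 and 0.97), for Stub1 B3gat3 and Gipc1 (0.96 and 0.93) and for Ube4b Clasp1 and Kif1b (0.98 and 0.98). Nploc4 had 132 genes with an r over 0.9 and Josd2 had 3. None of the 8 genes was among the 2 most like another, and these values share the limits given for the pairs.

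Spread between libraries differed among the 8 genes. The coefficient of variation over the 12 libraries was 8.77% for Vcp and 23.3% for Ube4b, beside a median of 20.1% over all tested genes. Set against the 500 genes nearest in CPM, 90.0% varied less than Ube4b and 85.2% less than Nploc4, while 31.9% varied less than Vcp.

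Most of the 8 genes were carried by a single transcript. Josd1 has 1 listed transcript, and the main one held 99.97% of the estimated counts of Vcp (Vcp-201), 99.1% of Rad23b (Rad23b-201), 96.2% of Nploc4 (Nploc4-201), 96.1% of Ube4b (Ube4b-202) and 88.2% of Ufd1 (Ufd1-201), as means over 12 libraries. A Ufd1 transcript annotated as a target of nonsense-mediated decay, Ufd1-209, held 7.42%. Its share was 8.06 ± 1.11% in Q84 and 7.42 ± 0.658% in WT (SD, n = 5 each), a difference smaller than the spread.

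Josd2 and Stub1 were divided among several transcripts. Of the 19 transcripts of Josd2, 6 held 5% or more, led by Josd2-204 with 61.2 ± 1.51% in Q84 and 59.7 ± 3.87% in WT (SD, n = 5 each). The coding Josd2-202 held 6.33 ± 1.54% in Q84 and 8.37 ± 1.22% in WT, Josd2-201 held 5.54% in Q84 and 5.83% in WT, and Josd2-203 held 4.31% in Q84 and 5.60% in WT (SD where given, n = 5 each). The retained-intron form Josd2-217 held 8.18% in Q84 and 7.47% in WT, and the retained-intron form Josd2-210 held 6.83% in Q84 and 4.73% in WT.

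Stub1 was shared mainly by 2 coding transcripts. Stub1-204 held 38.8 ± 2.16% in Q84 and 36.0 ± 1.17% in WT, and Stub1-201 held 34.97 ± 3.30% in Q84 and 37.1 ± 2.22% in WT (SD, n = 5 each). The retained-intron form Stub1-206 held 14.1% in Q84 and 14.5% in WT, and the coding Stub1-207 held 6.47% in Q84 and 6.87% in WT. The library labelled Q84 female 5 stood outside the other 11, with 47.7% of Stub1-204 and 26.2% of Stub1-201. Shares of similar transcripts are likelihood estimates and carry that uncertainty. Tested singly, 0 of 48 transcripts of the 8 genes passed in the 10 libraries, where 1.06% of 61514 did, and 0 of 49 in the 12, where 0% of 62678 did (edgeR). At an unadjusted p under 0.05 the counts were 1 in the 10 libraries, where 11.4% of all tested transcripts reached it, and 3 in the 12, where 9.26% did.

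Around the 8 genes, 8 lists of related genes were examined, holding 192 tested genes in all. In the 10 libraries 5 of the 192 genes passed (2.60%, beside 6.45% of all tested genes), 1 higher and 4 lower in Q84, and 27 had an unadjusted p under 0.05 (14.1%, beside 20.2% of all tested genes). In the 12 libraries 0 of 192 passed with edgeR and 14 had an unadjusted p under 0.05 (7.29%, beside 14.3% of all tested genes).

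Of 29 other VCP cofactors, 1 was lower in Q84 in the 10 libraries and 0 higher, with a median log2 fold change of 0.01 beside 0.01 over all tested genes. The gene was Ubxn1, whose protein binds both ubiquitin and VCP. Ubxn1 had 77.8 CPM in Q84 male 1 and 86.0, 82.3, 80.8 and 83.2 CPM in Q84 females 1 to 4. WT males 1 to 3 had 115, 106 and 102 CPM and WT females 1 and 3 had 104 and 106 CPM. The groups did not overlap, and the library labelled Q84 female 5, at 98.5 CPM, lay nearer to WT while that labelled WT female 2, at 86.6 CPM, lay nearer to Q84. Ubxn1 fell in Q84 by 0.38 on the log2 scale (SE 0.07, adjusted p = 0.00418, edgeR, 10 libraries). In the 12 libraries the fitted change was -0.27 (adjusted p = 0.169, edgeR).

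The 27 genes of degradation at the endoplasmic reticulum, the main pathway that UFD1 and NPLOC4 serve, gave 0 calls in the 10 libraries, 4 unadjusted p under 0.05 and a median of 0.02. The smallest p belonged to Ubl4a, of the complex that guards tail-anchored proteins, at 104 ± 5.40 CPM in Q84 and 117 ± 9.70 CPM in WT (SD, n = 5 each; adjusted p = 0.0908, edgeR). Next came Ube2g2, a ubiquitin-conjugating enzyme of this pathway, at 67.2 ± 2.00 CPM in Q84 and 73.2 ± 7.15 CPM in WT (adjusted p = 0.207, edgeR).

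The 13 ubiquitin shuttles and proteasome receptors beside Rad23b gave 0 calls in the 10 libraries, 0 unadjusted p under 0.05 and a median of -0.03. Nbr1, an autophagy receptor, stood at 171 ± 16.5 CPM in Q84 and 156 ± 11.9 CPM in WT, and Ddi2, a shuttle protein, at 39.0 ± 3.37 CPM in Q84 and 45.4 ± 6.80 CPM in WT (SD, n = 5 each; adjusted p = 0.402 and 0.419, edgeR).

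Of 23 chaperones and enzymes that work with STUB1, 1 rose and 1 fell in Q84 in the 10 libraries, with a median of 0.06. Hspa8, the constitutive HSC70 chaperone that STUB1 binds, had 5949 CPM in Q84 male 1 and 6368, 5983, 5970 and 6051 CPM in Q84 females 1 to 4, against 4936, 4965 and 4785 CPM in WT males 1 to 3 and 4553 and 5146 CPM in WT females 1 and 3. The groups did not overlap, and the libraries labelled Q84 female 5 and WT female 2 had 4598 and 5917 CPM. Hspa8 rose by 0.31 ± 0.07 on the log2 scale (SE; adjusted p = 0.0273, edgeR), but the call was lost without any single library except WT male 1, with adjusted p of 0.0517 to 0.121, and with counts from length-scaled TPM (0.141).

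Fkbp5, a co-chaperone of HSP90 known for its induction by glucocorticoids, had 16.8 CPM in Q84 male 1 and 18.5, 25.3, 17.3 and 19.4 CPM in Q84 females 1 to 4. WT males 1 to 3 had 18.5, 28.8 and 26.8 CPM and WT females 1 and 3 had 30.5 and 29.3 CPM. The groups overlapped at WT male 1, and the libraries labelled Q84 female 5 and WT female 2 had 30.0 and 29.4 CPM. Fkbp5 fell by 0.56 on the log2 scale (SE 0.15, adjusted p = 0.0403, edgeR), a call lost in 12 of 20 alternative settings, among them leaving out any single library but WT male 1 or Q84 female 2, with adjusted p up to 0.149.

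Of 16 other ubiquitin ligases of protein quality control, 1 fell in Q84 and 0 rose in the 10 libraries, with a median of 0.04. Nedd4l, a ligase known for lowering sodium channels at the cell surface, had 70.2 CPM in Q84 male 1 and 59.4, 61.4, 65.1 and 61.2 CPM in Q84 females 1 to 4. WT males 1 to 3 had 70.7, 128 and 134 CPM and WT females 1 and 3 had 98.6 and 115 CPM. WT male 1 lay just above the highest Q84 library, and the libraries labelled Q84 female 5 and WT female 2 had 129 and 91.0 CPM. Nedd4l fell by 0.74 on the log2 scale (SE 0.16, adjusted p = 0.0195, edgeR), and the call was lost without WT female 3 (0.0984) or without Q84 male 1 (0.0723).

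Reported substrates and binders of ataxin-3, 21 in number, gave 0 calls in the 10 libraries, 3 unadjusted p under 0.05 and a median of 0.10, beside 0.01 over all tested genes. The corepressor Ncor1 was at 78.6 ± 6.13 CPM in Q84 and 64.9 ± 3.17 CPM in WT, with groups that did not overlap (SD, n = 5 each; adjusted p = 0.0679, edgeR). The library labelled Q84 female 5, at 98.3 CPM, was above both groups. The acetyltransferase Kat2b was at 41.0 ± 2.84 CPM in Q84 and 35.7 ± 3.30 CPM in WT (adjusted p = 0.133, edgeR).

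Of the other deubiquitinases, the 29 of the remaining cysteine and metalloprotease families gave 0 calls in the 10 libraries, 3 unadjusted p under 0.05 and a median of -0.0045. Otud1 stood at 4.05 ± 0.489 CPM in Q84 and 2.89 ± 0.327 CPM in WT, and Vcpip1, which acts with VCP in rebuilding the Golgi, at 148 ± 6.36 CPM in Q84 and 135 ± 7.09 CPM in WT (SD, n = 5 each; adjusted p = 0.130 and 0.161, edgeR). Among 44 ubiquitin-specific proteases 1 fell in Q84 and 0 rose, with a median of 0.04. That gene, Usp12, had 153 CPM in Q84 male 1 and 157, 156, 149 and 140 CPM in Q84 females 1 to 4, against 176, 180 and 180 CPM in WT males 1 to 3 and 179 and 199 CPM in WT females 1 and 3.

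The Usp12 groups did not overlap, and the libraries labelled Q84 female 5 and WT female 2 had 131 and 173 CPM. Usp12 fell by 0.29 on the log2 scale (SE 0.07, adjusted p = 0.0207, edgeR, 10 libraries). The call was lost without WT female 3 (0.130), Q84 male 1 (0.0563) or Q84 female 3 (0.0516).

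**Figure D5:**
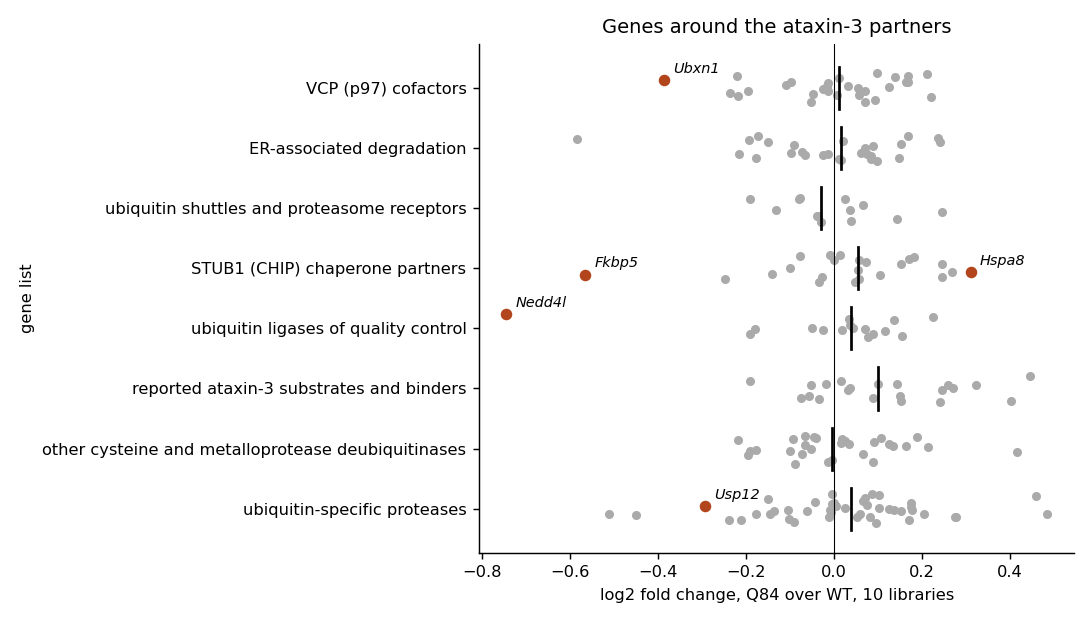
Log2 fold change, Q84 over WT in 10 libraries, of each gene of 8 related lists; grey points did not pass, orange named points passed at an adjusted p of 0.05 over all genes (edgeR), and black bars are list medians. Passing genes are Ubxn1, Fkbp5, Hspa8, Nedd4l and Usp12, and list medians lie between -0.03 and 0.10.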

How the data were processed

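Libraries were made from poly(A) RNA with NEBNext kits, per the labels' protocols. Per the submitters' processing notes, which give no roles, the build was GRCm39 and STAR 2.7.10b and kallisto 0.46.2 were used. Column names match kallisto output, per the file headers. The deposited estimated counts are the authors' values per transcript, not scaled between libraries. TPM, as deposited, corrects each transcript for effective length and brings every library to one total. Deposited effective lengths served to derive the mean fragment length, and lengths to describe transcripts. No source used here gives the release of the transcripts.

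Of 116313 transcripts, 98.253% were assigned to 35534 genes by Ensembl identifier without version in GENCODE M21 (GRCm38), whose coordinates are not printed. The 8 genes and all gene lists were chosen with earlier results of these data known. Estimated counts were summed per gene, rounded, filtered with filterByExpr, scaled with TMM and tested over all genes with edgeR 4.0.16 (quasi-likelihood, robust; genotype and sex as terms; Benjamini-Hochberg adjustment). Intervals of 95% use the fit's degrees of freedom. CPM values use TMM factors over 12 libraries, and levels were compared between genes in TPM. Alternatives were DESeq2 1.42.0, limma-voom (limma 3.58.1), RLE and upper-quartile scaling, other filters, counts from length-scaled TPM, the replicate number as a block, no sex term, females alone, and leaving out single libraries. Code was tested on simulated counts. No 2 libraries of a group agreed within sampling noise (chi-square per degree of freedom 30.9 or more).

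Besides the 8 genes and Atxn3, the text names list genes that passed in the 10 libraries (at most 6 per list), or the 2 of smallest p where none passed, the 2 genes most like each of the 8, and transcripts with a mean share of 5% or more. Jmjd8, Cdc45, 1700022I11Rik, Ube4bos1 and Ube4bos3 were named for their overlap with the 8 genes. Pdgfra and Pou4f1 were named after their values were seen.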

Additional observations from a re-analysis of the deposited data

Results flagged for a closer look

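Josd1 in WT male 1 stood apart from the other libraries labelled WT: it held 24.17 CPM, and the gap to the next library was 0.645 of the range of the 6 libraries. In the 5 WT libraries without the one labelled WT female 2 this gap did not pass the limit for 5 samples. It was the only value of the 8 genes that stood apart in this way in 32 group checks, many of which share libraries. Chance flags about 1 in 20 such checks, so 1 flag in 32 is no more than that rate would give.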

How the results depend on the processing

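For the 8 genes the count of calls stayed at 0 under every alternative run, in the 10 and 12 libraries, between the sexes and over transcripts. The counts over all genes did not. For Q84 against WT in 12 libraries (1 called) they were 620 with DESeq2, 15 without a filter, 193 without the sex term, 0 in females alone and 0 to 1082 with one library left out, the highest without Q84 female 5. In the 10 libraries (1207 called) DESeq2 gave 1933, and leaving out one library gave 680 (without Q84 male 1) to 1978 (without WT male 1). For sex (12 called) DESeq2 gave 20, a mean of 1 CPM or more 7, and leaving out one library 6 to 23. Over all transcripts, leaving out one library gave 0 to 508 in the 12 libraries and 268 to 920 in the 10. The female comparison and the settings that leave out libraries use fewer samples, and leaving out single libraries moved the counts both up and down. The cause of these shifts was not tested.

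With the replicate number as a block the counts were 638 in 12 libraries, 701 in 10, 7 for sex and 91 for transcripts in the 10. Same-numbered libraries did not deviate together in every pair (r from -0.13 to 0.24). Differently numbered pairs were not set beside them, so this cannot decide whether the numbers pair libraries. Numbers 4 and 5 each belong to a single library, so the block takes Q84 female 4 out of every comparison and Q84 female 5 out of the 12-library ones. Under the block Vcp was at 0.0092 and Ube4b at 0.0142 in the 10 libraries and Josd1 at 0.0271 for sex (log2), each with the sign turned, and Nedd4l (adjusted p = 0.0594), Usp12 (0.136), Hspa8 (0.104) and Fkbp5 (0.0627) lost their calls.

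Signs of changes near 0 turned elsewhere too. Ufd1 in 12 libraries was -0.0022 with length-scaled TPM, -0.0183 without the sex term and -0.0228 to 0.0617 with one library left out. Vcp was 0.00021 in the females of the 10 libraries. Leaving out one library gave Ube4b -0.134 to 0.0271 in the 10 libraries and -0.132 to 0.0406 in the 12, and, for sex, Josd1 -0.0928 to 0.0738 and Stub1 -0.0740 to 0.0551. Josd1, Josd2, Nploc4, Rad23b and Stub1 kept a negative sign for Q84 against WT, and Ufd1 a positive one in the 10 libraries, in all alternatives. Ubxn1 stayed past the threshold in 20 of 20 alternatives (adjusted p up to 0.0407), Nedd4l in 17, Usp12 in 15, Hspa8 in 8 and Fkbp5 in 8; these and the counts over all features were added after seeing the data. Small groups and 1 Q84 male limit what could be detected for the 8 genes: the intervals allow a fold of 0.661 for Josd2 and 1.32 for Ube4b.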
